A study of Mus musculus with 16 samples.

Results

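GABAergic interneurons, the inhibitory neurons of the cortex, were followed through 33 genes that make or release GABA, direct the fate of these cells or mark their classes. The genes were taken by symbol from the deposited expression table of 20841 genes, and all 33 were in it. PolyA RNA was sequenced from right-hemisphere cortex of newborn (P0) mice and of mice 7 days old (P7), each control or with a conditional knockout (cKO) of Foxp1 in the forebrain. Each combination of age and genotype had 4 libraries, 16 in all. The P0 control libraries are numbered 1, 2, 5 and 6 and the P0 cKO libraries 3, 4, 7 and 8. The P7 control libraries are 43, 45, 46 and 47 and the P7 cKO libraries 41, 42, 44 and 48, and values are given in these orders. The labels name no strain, no alleles of the control mice and no Cre line, and nothing in them says how many litters the libraries came from, so p-values measure the spread between these libraries. The published study deleted floxed Foxp1 with Emx1-Cre, which is active in the dorsal forebrain lineage of cortical glutamatergic neurons and astrocytes and not in the ventral forebrain where cortical interneurons are born.

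As background, cortical interneurons arise in the ganglionic eminences below the cortex and migrate into it around birth. Cells of the medial eminence, under Lhx6, become the parvalbumin and somatostatin classes, and cells of the caudal eminence, which hold Prox1, become most of the Vip, calretinin and Ndnf classes. Class markers come on at different times, and parvalbumin appears last, after the first postnatal week. Foxp1 is a forkhead transcription factor, and in the cortex it is best known in glutamatergic neurons.

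The promoters of called members are shown because Foxp1 belongs to a family that binds forkhead motifs. The RefSeq table of start sites (GRCm38.p6) held windows for 25 of the 33 members, and 8 had no window (Dlx5, Dlx6, Maf, Htr3a, Crh, Ndnf, Calb1 and Calb2). Each sequence is the 250 bases before the start of transcription, on the strand of the gene, at chr9:121495695-121495944 (minus strand), chr6:49822460-49822709 (plus strand) and chr17:51833291-51833540 (minus strand). Satb1 had 5 windows and the outermost is printed. Capitals mark the forkhead motif TGTTTAC, searched on both strands.
Cck: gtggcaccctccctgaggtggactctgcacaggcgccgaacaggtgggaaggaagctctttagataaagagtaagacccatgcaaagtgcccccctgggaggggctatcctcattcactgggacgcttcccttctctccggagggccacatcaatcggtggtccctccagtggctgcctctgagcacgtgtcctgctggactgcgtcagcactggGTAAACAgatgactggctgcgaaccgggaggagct
Npy: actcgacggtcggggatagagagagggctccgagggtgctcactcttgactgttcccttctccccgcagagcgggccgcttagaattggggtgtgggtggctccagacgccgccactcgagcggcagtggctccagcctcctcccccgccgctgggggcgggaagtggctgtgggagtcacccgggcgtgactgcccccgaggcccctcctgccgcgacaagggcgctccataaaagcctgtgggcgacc
Satb1: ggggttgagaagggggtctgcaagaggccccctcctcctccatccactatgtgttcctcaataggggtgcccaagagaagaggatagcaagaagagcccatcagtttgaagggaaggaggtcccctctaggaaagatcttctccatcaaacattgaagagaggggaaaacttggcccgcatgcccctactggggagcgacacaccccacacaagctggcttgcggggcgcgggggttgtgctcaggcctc
In the Cck window the motif stood once, as its reverse complement GTAAACA, with its first base 35 bases upstream of the start. The letters were in neither of the other sequences. Among all windows of this length, 1040 of 32851 held the motif, which is 3.17%, and among the 40 windows of members it was in 1, that of Cck. The match is a stretch of letters, and binding was not measured.

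The level of each gene is in CPM, the reads of the gene scaled to the same total in every library. Libraries held 17957490 to 18232943 reads at P0 and 9858296 to 15335738 at P7. Foxp1 fell to 49.3% of the control level at P0 and to 48.9% at P7 (exact two-sided permutation p = 0.0286 at each age, n = 4 per group, the smallest p that 70 assignments allow), and the 4 cKO values lay below the 4 control values at both ages. At P0, control libraries 2 and 6 stood apart from the other 6 libraries on the first principal component, which held 46.5% of the variance. Genes of cortical glutamatergic neurons (Slc17a7, Slc17a6, Neurod2, Neurod6, Tbr1, Emx1 and Nrn1) were all above 1 CPM in every group on average, and none of the 7 was called between genotypes at either age.

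Few interneuron genes passed the test between genotypes. At P0, 1 of the 29 members with enough reads was called, Cck, which was higher in cKO cortex, beside 0.254% of the 12580 genes tested (0.183% higher and 0.0715% lower). At P7, 3 of 31 were called, Calb2 and Npy higher and Satb1 lower, beside 3.72% of 12828 genes (1.67% higher and 2.05% lower). Calls were made at a Benjamini-Hochberg adjusted p under 0.05 in limma, on log2(CPM + 1), which understates the change of low genes. The genes for GABA synthesis and vesicle loading, Lhx6, Sst and Vip were not called at either age at which they were tested. In bulk tissue, fewer cells of a type and less RNA per cell cannot be told apart, and neither can more cells and more RNA.

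The members' median log2 fold change was 0.057 at P0, with 18 above 0 and 11 below, and 0.013 over all genes tested. At P7 it was 0.10, with 22 above and 9 below, and 0.032 over all genes. Unadjusted p was under 0.05 for 11 of 29 members at P0 (37.9%; 24.1% higher and 13.8% lower), beside 18.1% of all genes (9.59% higher and 8.5% lower). At P7 it was under 0.05 for 11 of 31 members (35.5%; 32.3% higher and 3.23% lower), beside 14.3% of all genes (8.55% higher and 5.72% lower). The members thus passed this unadjusted threshold at a larger share than all genes at both ages, and since they were chosen with results known this is a description only. The 95% interval of the change in CPM + 1 lay wholly inside 2-fold in either direction for 27 of 29 members at P0. At P7 this held for 29 of 31. The exceptions reached past 2-fold on the higher side, Ndnf (0.31 to 1.25) and Calb1 (0.21 to 1.51) at P0 and Htr3a (0.26 to 1.02) and Calb2 (0.36 to 1.10) at P7, all as log2 fold changes. For low genes these intervals do not bound the change of CPM itself, which the added 1 understates. Htr3a at P7 had a ratio of mean CPM of 2.02 beside a log2 fold change of 0.64. Cort at P7 (0.934 CPM in controls) and Crhbp at P0 (0.968 CPM in controls) were counted as inside 2-fold. Not tested, with fewer than 4 libraries at 1 CPM, were Lhx8 and Pvalb at both ages and Vip and Crh at P0.

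**Figure D1:**
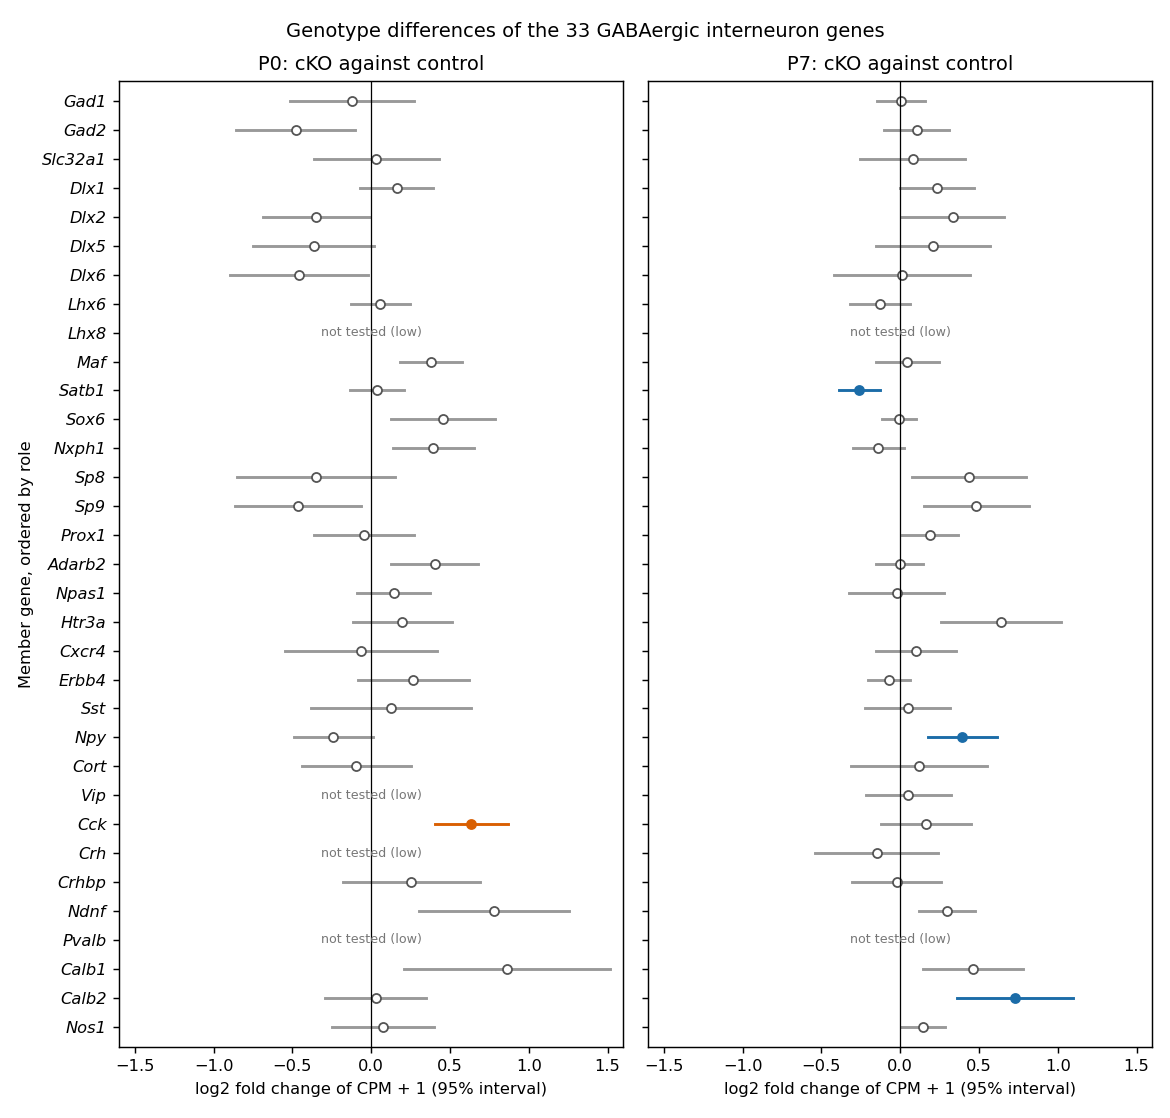
Log2 fold change of CPM + 1 between cKO and control (points) with its 95% interval (lines) for each of the 33 members, at P0 on the left and P7 on the right, ordered by role. Filled points are the members called by limma, Cck at P0 and Satb1, Npy and Calb2 at P7, and the others have open points.

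The 4 cKO values lay wholly above the 4 control values for 3 members at P0 (Cck, Maf and Nxph1) and wholly below for none, where 9.86% of all genes tested had no overlap in either direction (5.37% above and 4.5% below). At P7 they lay above for 4 (Htr3a, Ndnf, Calb1 and Calb2) and below for 1 (Satb1), where 8.88% of all genes had no overlap (5.11% above and 3.77% below). The shares among members were 3 of 29 and 5 of 31, which is 10.3% and 16.1%.

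The enzymes that make GABA from glutamate, Gad1 and Gad2, and the transporter that loads it into vesicles, Slc32a1, were not called at either age. Gad1 values at P0 were 73.4, 57.03, 80.4 and 123 CPM in controls and 68.97, 78.8, 83.5 and 64.3 CPM in cKO cortex. Gad2 values at P0 were 80.7, 132, 122 and 133 CPM in controls and 70.4, 77.8, 113 and 72.8 CPM in cKO cortex. Slc32a1 values at P0 were 18.7, 12.8, 24.1 and 25.9 CPM in controls and 19.7, 21.3, 20.8 and 19.1 CPM in cKO cortex. The groups overlapped for all 3 genes, the highest Gad1 value was in control library 6, and 3 of the 4 cKO libraries had less Gad2 than any control. The log2 fold change was -0.12 for Gad1 (95% interval -0.52 to 0.27, limma adjusted p = 0.736), -0.48 for Gad2 (-0.86 to -0.10, adjusted p = 0.205) and 0.033 for Slc32a1 (-0.36 to 0.43, adjusted p = 0.937). The unadjusted interval of Gad2 thus lay below 0 and its adjusted p missed the threshold. The antisense gene Gm14205 covers 24.9% of the exonic bases of Slc32a1 in GENCODE M21, and no source used here says whether counting used strand, so reads of the pair may not be told apart.

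At P7 the intervals of the same 3 genes were narrower. Gad1 values at P7 were 121, 122, 115 and 114 CPM in controls and 114, 104, 137 and 121 CPM in cKO cortex. Gad2 values at P7 were 197, 156, 143 and 147 CPM in controls and 176, 148, 198 and 167 CPM in cKO cortex. Slc32a1 values at P7 were 14.1, 9.56, 10.3 and 11.6 CPM in controls and 10.6, 9.07, 13.3 and 15.9 CPM in cKO cortex. All 3 pairs of groups overlapped, with Gad2 highest in cKO library 44 and control library 43. The log2 fold change was 0.0058 for Gad1 (95% interval -0.15 to 0.16), 0.11 for Gad2 (-0.10 to 0.31) and 0.081 for Slc32a1 (-0.25 to 0.41), with limma adjusted p from 0.714 to 0.986. For Gad1 the interval held changes of 0.904-fold to 1.12-fold. Summed over the 3 genes, the level was 289.9 ± 29.04 CPM in control and 304 ± 35.8 CPM in cKO cortex at P7 (SD, n = 4 each), and 221 ± 45.97 and 178 ± 28.2 CPM at P0.

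**Figure D2:**
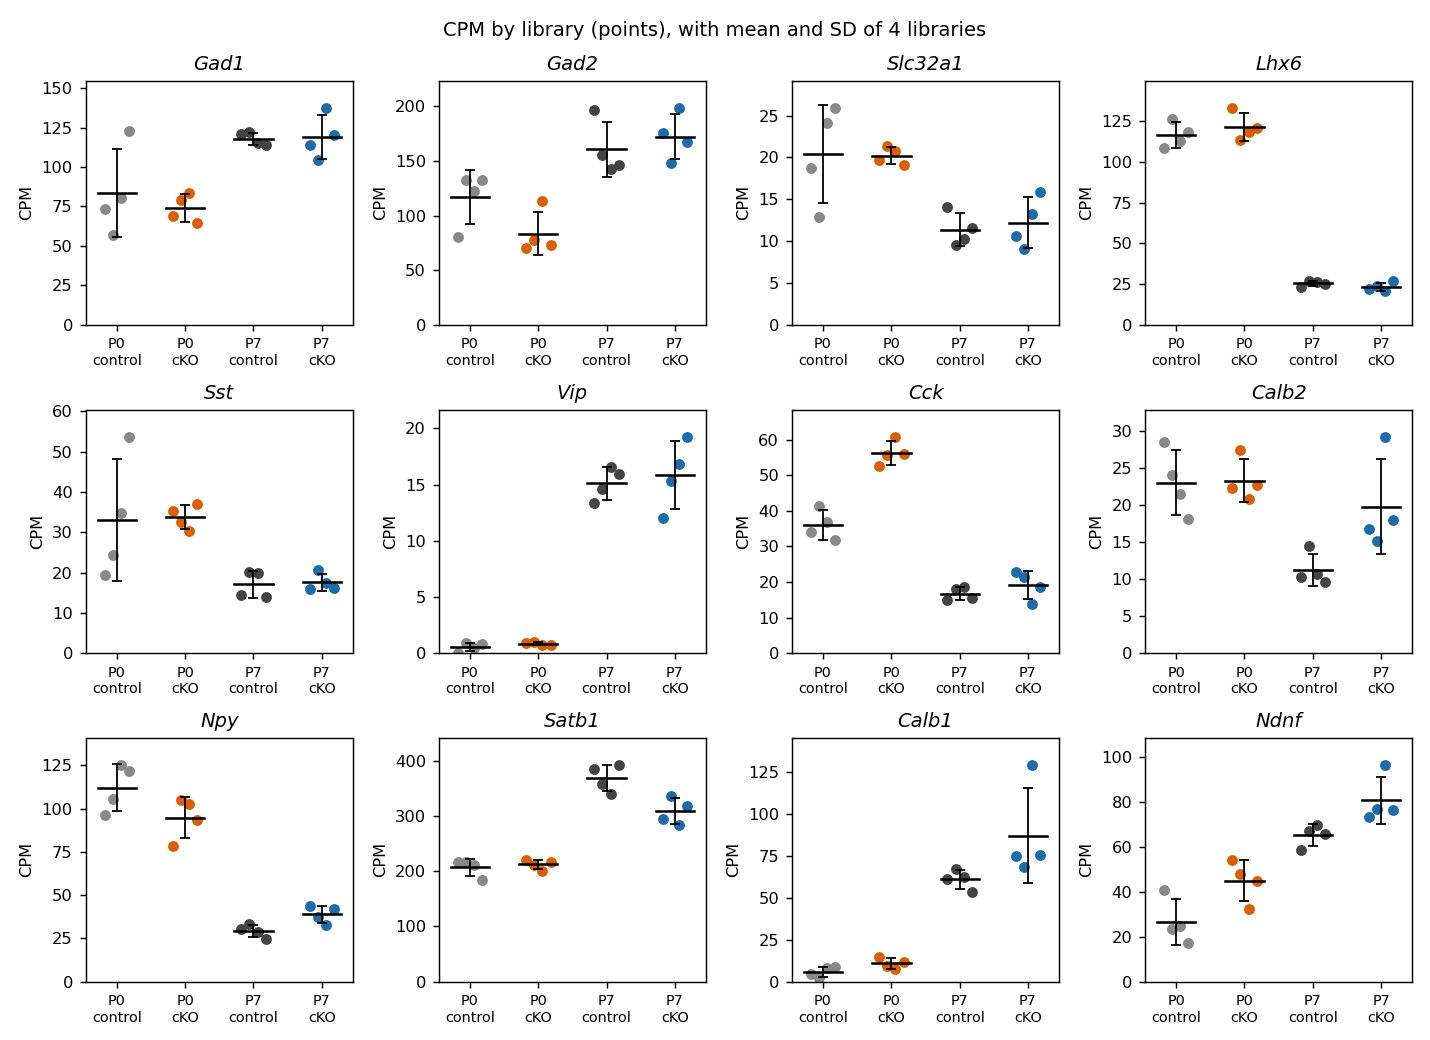
CPM of 12 members in each of the 16 libraries (points), with the mean and SD of 4 libraries per group (bars), on axes that start at 0. Gad1, Slc32a1, Lhx6, Sst and Vip overlap between genotypes at both ages, Cck is higher in all 4 P0 cKO libraries than in any P0 control, and Calb1 and Ndnf at P7 are highest in cKO library 44.

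The transcription factors that open the GABAergic programme, Dlx1, Dlx2, Dlx5 and Dlx6, and the related factors Sp8 and Sp9 were not called at either age. These 6 genes also work in the lateral eminence, the source of striatal and olfactory bulb neurons. At P0 their log2 fold changes were 0.16 for Dlx1 and from -0.46 (Sp9) to -0.35 (Dlx2) for the other 5, and at P7 5 were above 0, from 0.21 (Dlx5) to 0.48 (Sp9), in every alternative as well. Dlx6 was at 0.011 at P7 and had no stable direction, with the other sign in 9 of 16 alternatives and a range of -0.24 to 0.26. Sp9 was at 26.7 ± 6.78 CPM in P0 control and 18.7 ± 3.03 CPM in P0 cKO cortex (limma adjusted p = 0.228), and at 7.46 ± 1.68 and 10.8 ± 1.96 CPM at P7 (adjusted p = 0.126), SD and n = 4 each. Dlx1, per kilobase of exon the most abundant of the 6 in control cortex, was at 202 ± 31.8 and 224 ± 7.72 CPM at P0 and 47.6 ± 2.40 and 56.9 ± 11.3 CPM at P7. Without cKO library 44 the P7 differences of Dlx1 (0.36, adjusted p = 0.0316), Sp8 (0.64, adjusted p = 0.00853) and Sp9 (0.60, adjusted p = 0.0437) passed the threshold in limma.

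Markers of striatal projection neurons, cells of the lateral eminence, had fold changes below 0 at P0 and mostly above 0 at P7, none of them called by limma. Of the list's 14 genes (Drd1, Drd2, Ppp1r1b, Adora2a, Rgs9, Isl1, Ebf1, Pde10a, Rarb, Six3, Gpr6, Ido1, Rasd2 and Actn2), 12 were tested at P0 and all 12 had log2 fold changes below 0, with a median of -0.46, and at P7 11 of 13 were above 0, with a median of 0.25 (9 of 13 on medians of ratios, in edgeR and in DESeq2). Ido1 was under 1 CPM in every group. The mean log2(CPM + 1) of the list was 2.57 to 3.68 in P0 controls and 2.54 to 3.18 in P0 cKO libraries, and 2.66 to 4.07 and 3.12 to 3.77 at P7. The P7 overlap came from control library 43 alone: the other 3 controls were at 2.66 to 2.82, below all 4 cKO libraries, and the difference of the means was 0.35 with it and 0.68 without it. P7 control library 43, highest in that level, was also highest among P7 libraries in Dlx6, at 16.6 CPM where the other 7 had 7.33 to 11.6 CPM. When the striatal level entered the fit as a covariate, the P0 log2 fold change of Sp9 was -0.18 in place of -0.46. That of Dlx6 was -0.18 in place of -0.46 and that of Gad2 -0.45 in place of -0.48. Gad1 was at 0.13 in place of -0.12 and Slc32a1 at 0.30 in place of 0.033. The part of striatal tissue in these values was not tested beyond this covariate.

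**Figure D3:**
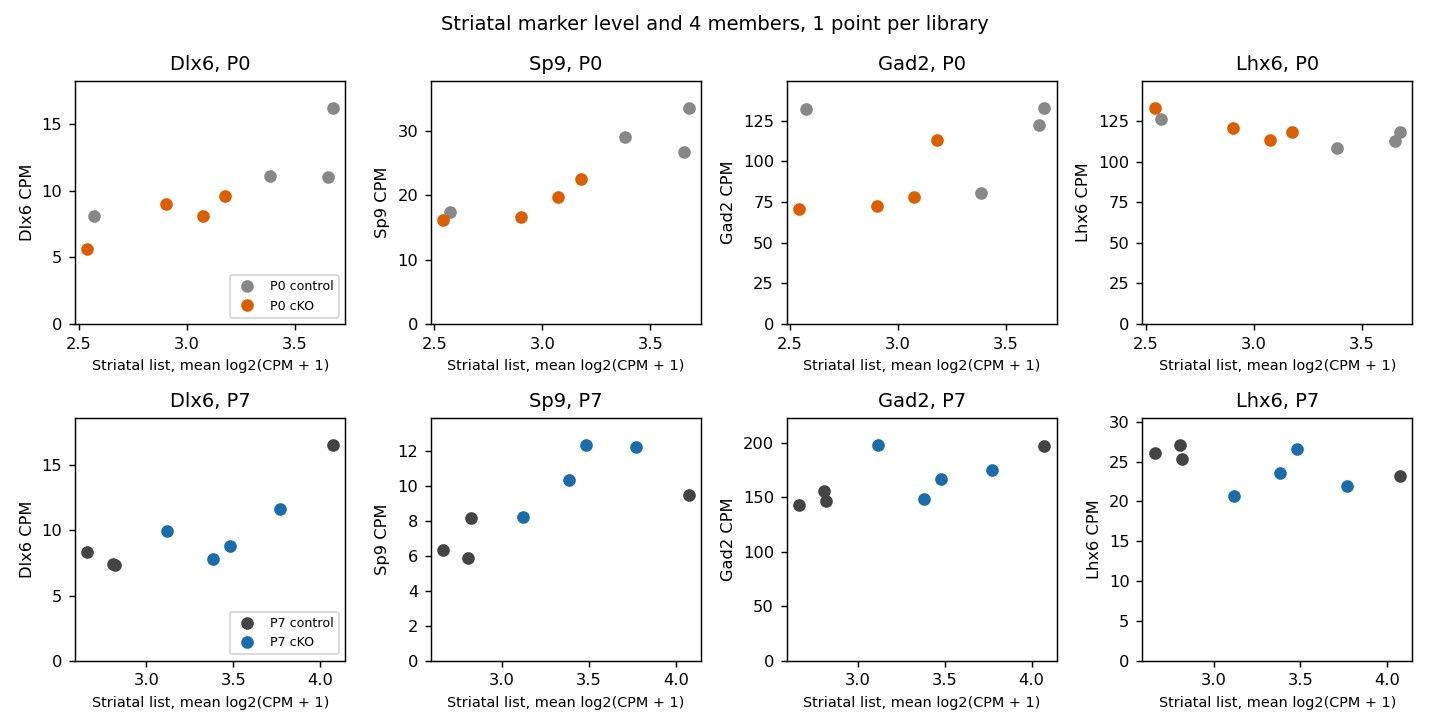
CPM of Dlx6, Sp9, Gad2 and Lhx6 (vertical axes, from 0) against the mean log2(CPM + 1) of the 14 striatal markers (horizontal axes), 1 point per library, at P0 (top) and P7 (bottom). P0 cKO libraries lie at 2.54 to 3.18 and P0 controls at 2.57 to 3.68 on the horizontal axis, and P7 control library 43 is the rightmost point of the lower panels, at 4.07.

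Among genes of the medial eminence lineage, Satb1 was lower in cKO cortex at P7 and no other was called. Lhx6 is the factor that medial eminence interneurons keep for life. Lhx6 values at P0 were 109, 126, 113 and 118 CPM in controls and 133, 113, 118 and 120.5 CPM in cKO cortex. Lhx6 values at P7 were 23.2, 27.1, 26.1 and 25.3 CPM in controls and 21.97, 23.6, 20.7 and 26.6 CPM in cKO cortex. The groups overlapped at both ages, and the log2 fold change was 0.057 at P0 (95% interval -0.13 to 0.24, limma adjusted p = 0.742) and -0.13 at P7 (-0.32 to 0.063, adjusted p = 0.594). Lhx8, a factor of the embryonic medial eminence and of cholinergic neurons, was at 0.693 ± 0.482 CPM in P0 control cortex and lower on average in the other 3 groups.

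Satb1 (chromosome 17, 51736187 to 51833290, minus strand, GRCm38) encodes a chromatin organiser that maturing somatostatin and parvalbumin interneurons need, and other cortical neurons express it too. Satb1 values at P7 were 385, 358, 340.1 and 392 CPM in controls and 294, 336, 284 and 319 CPM in cKO cortex. All 4 cKO values were below all 4 control values, and the mean fell from 369 ± 24.1 to 308 ± 23.6 CPM (SD, n = 4 each), a log2 fold change of -0.26 (SE 0.061, limma adjusted p = 0.0264). Satb1 values at P0 were 217, 216, 211 and 185 CPM in controls and 221, 211, 201 and 216 CPM in cKO cortex. There the groups overlapped and the log2 fold change was 0.037 (adjusted p = 0.826). The P7 call was lost without control library 43 (adjusted p = 0.0866), control library 47 (0.0991), cKO library 41 (0.0722) or cKO library 44 (0.0611), with no filter on low values (0.0691) and in 1 fit over all libraries (0.0992), each with limma.

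Maf, Nxph1 and Sox6 had higher means in P0 cKO cortex without passing the threshold. Maf values at P0 were 78.6, 73.2, 76.3 and 68.7 CPM in controls and 98.3, 97.9, 87.2 and 105 CPM in cKO cortex. Nxph1 values at P0 were 36.1, 38.9, 50.1 and 45.2 CPM in controls and 58.6, 50.2, 54.5 and 60.5 CPM in cKO cortex. Neither pair of groups overlapped, and the log2 fold changes were 0.38 for Maf, a factor of somatostatin interneuron fate (limma adjusted p = 0.102), and 0.39 for Nxph1, a secreted neurexin ligand (adjusted p = 0.154). DESeq2 on the recovered reads called Maf (adjusted p = 0.00792). Sox6, which acts after Lhx6 in these cells and also marks oligodendrocyte precursors, was at 52.7 ± 14.8 and 70.98 ± 5.17 CPM at P0 (log2 fold change 0.46, adjusted p = 0.178), with control library 5 at 74.8 CPM above the other 3 controls, and it passed without that library (0.63, adjusted p = 0.0266). All 7 tested genes of the oligodendrocyte lineage list also had log2 fold changes above 0 at P0. Their median was 0.30, none was called, and 6 of 7 were above 0 on medians of ratios, in edgeR and in DESeq2. Among the 7, Mog stood at 19.5 to 40.0 CPM in P0 libraries and at most 0.547 CPM in P7 libraries. The part of this lineage in the Sox6 value was not tested. At P7 the log2 fold changes were 0.045 for Maf, -0.14 for Nxph1 and -0.0063 for Sox6, with adjusted p of 0.893, 0.457 and 0.976.

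Of the caudal eminence lineage, Prox1, Adarb2, Npas1 and Htr3a were not called at either age. Calb2, also found in caudal eminence interneurons, was called at P7 and is given below. Prox1 sets the identity and position of these interneurons, and granule cells of the hippocampus also express it. Prox1 values at P0 were 24.5, 37.3, 26.8 and 23.1 CPM in controls and 29.1, 25.9, 27.3 and 24.2 CPM in cKO cortex. Prox1 values at P7 were 36.1, 32.04, 32.2 and 27.2 CPM in controls and 36.1, 38.2, 35.2 and 36.01 CPM in cKO cortex. The groups overlapped at both ages, with log2 fold changes of -0.046 (limma adjusted p = 0.882) and 0.19 (0.302). Adarb2, an RNA-binding protein gene that labels this lineage, was at 34.1 ± 4.28 and 45.5 ± 6.28 CPM at P0 (0.40, adjusted p = 0.168) and at 139 ± 14.3 and 138 ± 7.51 CPM at P7 (-0.0020, adjusted p = 0.994). Npas1, a transcription factor gene that restrains interneuron production, was at 34.001 ± 0.830 and 37.8 ± 4.08 CPM at P0 and 6.22 ± 1.09 and 6.09 ± 0.916 CPM at P7, with overlapping groups.

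Htr3a encodes the serotonin-gated ion channel that defines the caudal eminence classes. Htr3a values at P7 were 1.08, 1.71, 1.05 and 1.38 CPM in controls and 3.72, 2.60, 1.71 and 2.54 CPM in cKO cortex. Htr3a values at P0 were 11.1, 10.4, 10.1 and 10.5 CPM in controls and 12.9, 12.1, 14.8 and 9.57 CPM in cKO cortex. At P7 the lowest cKO value stood just above the highest control value, at 1.7082 and 1.7078 CPM, and the log2 fold change of 0.64 missed the threshold (limma adjusted p = 0.0680). It passed without cKO library 44 (0.77, adjusted p = 0.0223) and in 1 fit over all libraries (adjusted p = 0.0487). At P0 the groups overlapped, with 0.20 (adjusted p = 0.475).

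Among the neuropeptide genes, Cck was higher in P0 cKO cortex and Npy in P7 cKO cortex, and Sst and Vip were not called. Cck (chromosome 9, 121489824 to 121495694, minus strand) encodes cholecystokinin, which marks a class of basket interneurons and is also made by many cortical glutamatergic neurons. Cck values at P0 were 34.2, 41.4, 36.8 and 31.7 CPM in controls and 52.6, 55.8, 60.9 and 55.9 CPM in cKO cortex. All 4 cKO values lay above all 4 control values. The mean rose from 36.01 ± 4.16 to 56.3 ± 3.41 CPM (SD, n = 4 each), a log2 fold change of 0.64 (SE 0.11, 95% interval 0.40 to 0.87, limma adjusted p = 0.0324). Cck values at P7 were 14.99, 17.97, 18.5 and 15.4 CPM in controls and 22.9, 21.3, 13.7 and 18.6 CPM in cKO cortex. There the groups overlapped and the log2 fold change was 0.16 (adjusted p = 0.670). The P0 call was lost without control library 6 (adjusted p = 0.0558) or cKO library 3, 4, 7 or 8 (0.124, 0.125, 0.126 and 0.119) and with no filter (0.0737), and it held without control libraries 2 and 6 together (0.00528).

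Npy (chromosome 6, 49822710 to 49829507, plus strand) encodes neuropeptide Y, which many somatostatin and neurogliaform interneurons make. Npy values at P7 were 30.6, 33.4, 28.8 and 24.8 CPM in controls and 44.01, 37.5, 32.7 and 41.9 CPM in cKO cortex. The lowest cKO value, in library 44, was below the highest control value, in library 45, and the other 3 cKO values were above all controls. The mean rose from 29.4 ± 3.59 to 39.02 ± 5.02 CPM (SD, n = 4 each), a log2 fold change of 0.39 (SE 0.10, limma adjusted p = 0.0473). Npy values at P0 were 96.2, 106, 125 and 122 CPM in controls and 78.5, 105, 103 and 93.2 CPM in cKO cortex. At P0 the groups overlapped with a log2 fold change of -0.24 (adjusted p = 0.290). The P7 call held in 6 of 16 alternatives, with adjusted p from 0.0140 to 0.154, and beside the striatal covariate it was 0.34 (adjusted p = 0.154).

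Sst and Vip mark the somatostatin and the disinhibitory Vip interneurons. Sst values at P0 were 19.5, 24.4, 34.8 and 53.7 CPM in controls and 35.3, 32.6, 30.2 and 37.1 CPM in cKO cortex. Sst values at P7 were 14.4, 20.1, 19.9 and 14.04 CPM in controls and 16.04, 20.6, 17.5 and 16.1 CPM in cKO cortex. The 4 P0 controls spanned a wider range than the cKO libraries and held both the lowest and the highest value, and the groups overlapped at both ages, with log2 fold changes of 0.13 (95% interval -0.38 to 0.63, limma adjusted p = 0.792) and 0.047 (-0.23 to 0.32, adjusted p = 0.923). Vip values at P7 were 13.3, 14.6, 16.6 and 15.9 CPM in controls and 12.1, 15.3, 16.8 and 19.3 CPM in cKO cortex. The log2 fold change of Vip at P7 was 0.052 (95% interval -0.22 to 0.32, adjusted p = 0.910). Vip values at P0 were 0.0548, 0.886, 0.497 and 0.835 CPM in controls and 0.884, 0.997, 0.719 and 0.775 CPM in cKO cortex. Only a few reads per library stood behind the P0 values, and Vip was not tested there.

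Ndnf, a marker of neurogliaform cells of layer 1 that Cajal-Retzius cells also express, had higher means in cKO cortex at both ages. Ndnf values at P0 were 40.9, 23.4, 24.7 and 17.4 CPM in controls and 54.3, 47.9, 32.6 and 45.03 CPM in cKO cortex. Ndnf values at P7 were 58.5, 67.1, 69.7 and 65.99 CPM in controls and 73.6, 77.005, 96.5 and 76.3 CPM in cKO cortex. At P0 the groups overlapped, and at P7 all cKO values were above the controls with library 44 the highest. The log2 fold changes were 0.78 (limma adjusted p = 0.131) and 0.30 (adjusted p = 0.0658). Ndnf was at 0.46 (adjusted p = 0.282) at P0 without control libraries 2 and 6, which stand apart. It passed at P0 without control library 1 (1.002, adjusted p = 0.0276), in DESeq2 (adjusted p = 0.0357) and in 1 fit over all libraries (0.0189), and at P7 without cKO library 41 (0.34, adjusted p = 0.0494) and with the striatal covariate (0.37, adjusted p = 0.0137). The rarer peptide genes gave no call: Cort, the somatostatin-like peptide cortistatin, was at 2.71 ± 0.634 and 2.45 ± 0.295 CPM at P0, Crh, the stress hormone corticotropin-releasing hormone, at 2.40 ± 0.758 and 2.03 ± 0.438 CPM at P7, and Crhbp, its binding protein, at 8.78 ± 1.17 and 8.66 ± 1.47 CPM at P7.

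Of the calcium-binding proteins, Calb2 was higher in P7 cKO cortex. Calb2 (chromosome 8, 110137502 to 110168210, minus strand) encodes calretinin, found in caudal eminence interneurons and also in Cajal-Retzius cells and thalamic neurons. Calb2 values at P7 were 10.3, 14.5, 10.8 and 9.62 CPM in controls and 16.8, 15.1, 29.3 and 17.95 CPM in cKO cortex. No values overlapped, cKO library 44 was the highest, and the mean rose from 11.3 ± 2.17 to 19.8 ± 6.43 CPM (SD, n = 4 each), a log2 fold change of 0.73 (SE 0.17, limma adjusted p = 0.0276). Without cKO library 44 it was 0.53 (adjusted p = 0.0394). Calb2 values at P0 were 28.6, 24.03, 21.6 and 18.1 CPM in controls and 22.3, 27.5, 20.9 and 22.7 CPM in cKO cortex. At P0 the groups overlapped, with 0.028 (adjusted p = 0.935). The P7 call was lost without control library 43 (adjusted p = 0.0809), 46 (0.0896) or 47 (0.0979) and with no filter (0.0896).

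The list of thalamic markers itself holds Calb2. The mean log2(CPM + 1) of its 8 genes was 3.66 to 3.77 in control and 3.83 to 3.91 in cKO libraries at P7. Without Calb2 the other 7 genes were at 3.67 to 3.81 in control and 3.76 to 3.86 in cKO libraries, which overlapped. Of the 7 tested, Calb2 and Lhx2 were called, both higher, and Lhx2, a homeobox gene that cortical cells also express, rose from 73.4 ± 4.57 to 88.5 ± 7.35 CPM (log2 fold change 0.26, limma adjusted p = 0.0459), a call lost in 12 of 16 alternatives. Of the 7, 5 had log2 fold changes above 0 and 2 below, with a median of 0.17. Slc17a6, also in the list, was at 134 to 142 CPM in control and 141 to 197 CPM in cKO libraries and was not called. The defining thalamic factors stood at 12.7 ± 0.951 and 13.3 ± 1.70 CPM for Tcf7l2 (limma adjusted p = 0.892) and under 1 CPM for Gbx2. The level of the 7 Cajal-Retzius genes was 2.75 to 2.85 in P7 control and 2.70 to 2.96 in P7 cKO libraries, highest in cKO library 44, with Lhx5 and Lhx1 under 1 CPM in both groups and none called. The part of thalamic or Cajal-Retzius cells in the Calb2 value was not tested.

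Calb1 encodes calbindin, which interneurons share with other neurons, upper-layer ones among them. Calb1 values at P7 were 61.05, 66.8, 62.5 and 53.1 CPM in controls and 74.7, 68.4, 129 and 75.6 CPM in cKO cortex. Calb1 values at P0 were 4.39, 2.44, 8.12 and 8.69 CPM in controls and 14.98, 9.52, 7.31 and 11.7 CPM in cKO cortex. The P7 groups did not overlap and cKO library 44 stood far above the other 3, with a log2 fold change of 0.46 (limma adjusted p = 0.122) that was 0.26 without that library (adjusted p = 0.0840), and the P0 groups overlapped, with 0.86 (adjusted p = 0.195). Library 44 was also highest at P7 in Nr2f2, a caudal eminence factor, at 169.5 CPM where the other 7 libraries had 56.6 to 87.1 CPM. Other caudal eminence genes did not move together in it. Sp8, at 6.26 CPM, was the lowest at P7, Htr3a, at 1.71 CPM, the lowest in cKO, and Adarb2, at 145 CPM, the highest in cKO. Nrn1, of the glutamatergic list, was also highest there at P7, at 60.6 CPM. Pvalb values at P0 were 0.165, 0.166, 0.276 and 0.334 CPM in controls and 0, 0.332, 0.111 and 0.111 CPM in cKO cortex. Pvalb values at P7 were 0.167, 0.137, 0 and 0 CPM in controls and 0.196, 0.336, 0 and 0 CPM in cKO cortex. Pvalb, the parvalbumin gene of fast-spiking interneurons, was thus below 0.4 CPM in every library, and at this depth no difference was detectable, since a count of 0 still allows 3 reads, or 0.165 to 0.167 CPM in a P0 library and 0.196 to 0.304 CPM in a P7 library (counting error only). Nos1, the nitric oxide synthase of long-range interneurons, was at 115 ± 32.4 and 119 ± 7.87 CPM at P0 and 66.7 ± 4.38 and 73.8 ± 5.16 CPM at P7, with adjusted p of 0.805 and 0.333.

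The receptors that guide migrating interneurons were not called. Cxcr4, the receptor for the chemokine that holds them in their streams, was at 29.7 ± 8.64 and 27.9 ± 7.73 CPM at P0 (log2 fold change -0.067, limma adjusted p = 0.888) and at 4.49 ± 0.240 and 4.87 ± 0.369 CPM at P7 (0.10, 0.795). Erbb4, the neuregulin receptor of migrating and later of parvalbumin interneurons, was at 91.1 ± 10.9 and 112 ± 30.3 CPM at P0 (0.27, 0.395) and at 433 ± 13.9 and 413 ± 41.9 CPM at P7 (-0.073, 0.686). The groups overlapped for both genes at both ages, and the P7 interval of Erbb4, -0.21 to 0.059, was among the narrower ones.

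Whether the effect of genotype differed between the ages was tested in 1 fit over all 16 libraries. None of 31 members was called by limma, beside 0.751% of 13444 genes (0.305% higher and 0.446% lower), although unadjusted p was under 0.05 for 13 members (41.9%) and for 15.6% of all genes. The smallest adjusted p values belonged to Npy (0.63, SE 0.17, limma adjusted p = 0.0840), Sp9 (0.95, SE 0.26, limma adjusted p = 0.0979) and Nxph1 (-0.53, SE 0.14, limma adjusted p = 0.0979), where a positive value means a higher cKO to control ratio at P7 than at P0. Npy and Sp9 had group means that were lower in cKO at P0 and higher at P7, and Nxph1 the opposite. By edgeR 0 members were called and by DESeq2 these 3 were, with adjusted p of 0.0323, 0.0204 and 0.0254. Cck (-0.47, SE 0.18, limma adjusted p = 0.240), Satb1 (-0.30, SE 0.10, limma adjusted p = 0.183) and Calb2 (0.70, SE 0.25, limma adjusted p = 0.195), called at 1 age only, were not shown to differ between ages. Leaving out 1 P0 library brought a call for Gad2 and Npy (without control 1, adjusted p = 0.0470 and 0.0374), Sp9 (control 2, 0.0190), Nxph1 and Sox6 (control 5, 0.0265 and 0.00357) or Sp8 (cKO 7, 0.0487), while leaving out a P7 library brought none.

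Between birth and P7 most interneuron genes differed in control cortex, as did most genes of the whole table. Far more members were called than between genotypes. Of 31 members tested, 29 were called by limma, 13 higher and 16 lower at P7, beside 82.5% of 13444 genes, 35.1% higher and 47.3% lower. P0 libraries came from 1 sequencing platform and P7 libraries from another, so age and platform cannot be told apart. Scaling by medians of ratios shifted the median log2 fold change of all genes from -0.19 to 0.026, and no member changed direction under it. Vip rose from 0.568 ± 0.383 to 15.1 ± 1.45 CPM, a ratio of 26.6 and a log2 fold change of 3.39 (adjusted p = 1.30e-13). Higher at P7 were also Calb1 (10.3-fold), Crhbp (9.07-fold), Crh (8.28-fold), Erbb4 (4.75-fold) and Adarb2 (4.06-fold), as ratios of mean CPM. Lower at P7 were Htr3a (8.04-fold), Cxcr4 (6.63-fold), Dlx2 (6.20-fold), Npas1 (5.46-fold), Lhx6 (4.58-fold) and Dlx1 (4.25-fold). Outside the members, the microglia marker P2ry12 was at 0 CPM in every P0 library and at 31.1 to 42.9 CPM in P7 libraries. Csf1r, another microglia marker, averaged 10.46 CPM in P0 control and 12.03 CPM in P7 control libraries. Mog stood at 19.5 to 40.0 CPM in P0 libraries and at most 0.547 CPM in P7 libraries. Whether platform changed the level of single genes, members among them, was not tested.

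Genes with related work did not move alike between P0 and P7 control libraries, a contrast that holds platform as well as age. Gad1 rose, with an age log2 fold change of 0.55 (adjusted p = 0.00243), and so did Gad2, with 0.47 (adjusted p = 0.00928), while Slc32a1 fell, with -0.76 (adjusted p = 0.000756). Within the medial eminence lineage Lhx6 fell, and Maf, Satb1, Sox6 and Nxph1 rose, Nxph1 by 1.45 (adjusted p = 3.78e-11). Sst fell, with -0.83 (adjusted p = 0.00105), and Npy fell, with -1.89 (adjusted p = 4.46e-12). The members not called were Dlx6 (adjusted p = 0.310), with control library 43 far above the other P7 controls, and Prox1 (adjusted p = 0.130). Without control library 43 Dlx6 passed (-0.50, adjusted p = 0.0237), and Prox1 passed without P0 control library 2 (0.35, adjusted p = 0.00318) and on medians of ratios, in edgeR and in DESeq2 (adjusted p = 0.00285, 0.00770 and 0.00222). Maf lost its call without P0 control library 6 (adjusted p = 0.0524) or P7 control library 47 (0.0940).

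**Figure D4:**
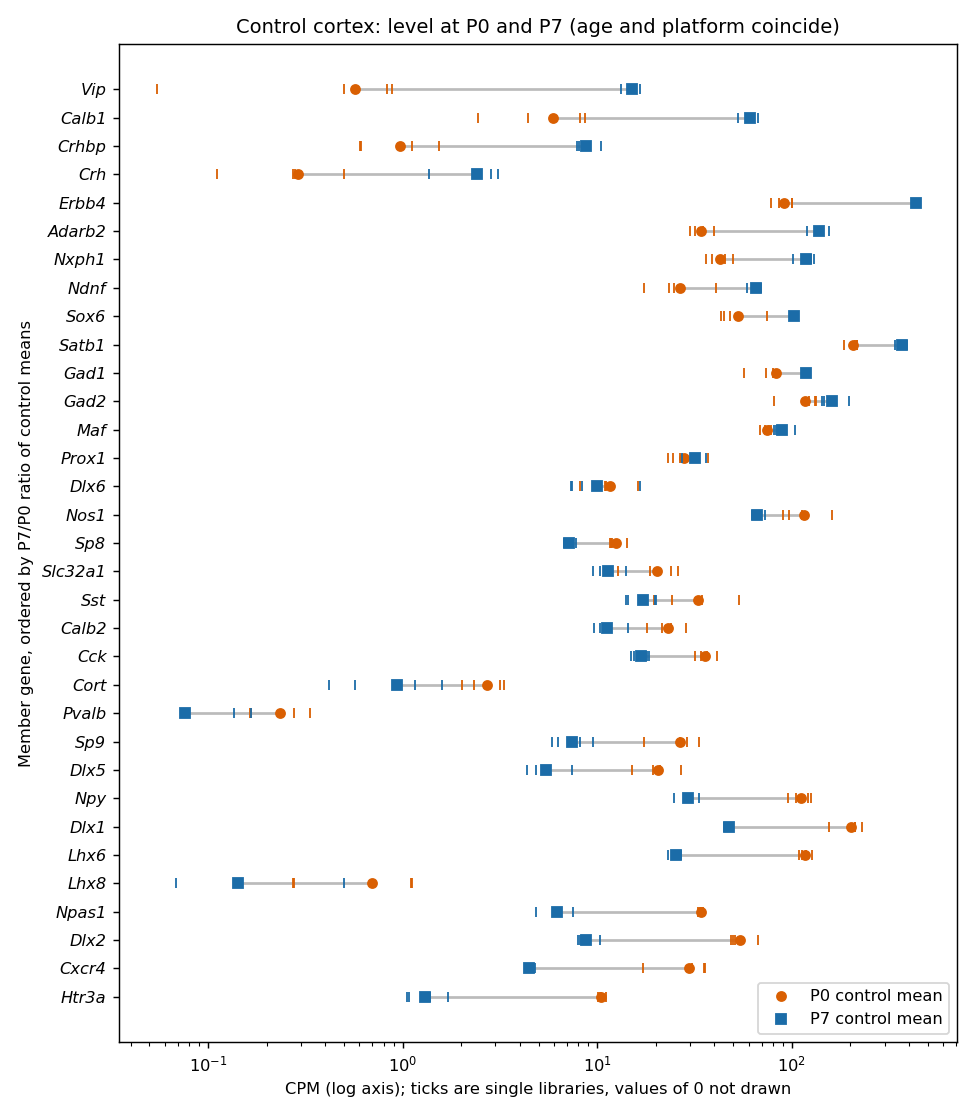
Mean CPM of each member in P0 control (circles) and P7 control cortex (squares) on a log axis, with single libraries as ticks, ordered by the ratio of P7 to P0. Htr3a, 8.04-fold lower at P7, is at one end and Vip, 26.6-fold higher, at the other, and the ages also differ in sequencing platform.

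Per kilobase of exon, so that levels can be set side by side between genes, Npy led in control cortex at both ages, at 198 ± 24.1 CPM per kilobase at P0 and 51.998 ± 6.35 at P7 (SD, n = 4). At P0 Sst (45.9 ± 21.02), Dlx1 (37.5 ± 5.90), Cck (27.6 ± 3.19) and Lhx6 (24.2 ± 1.61) followed, and Sst and Dlx1 did not differ beyond their spread. At P7 Erbb4 (35.05 ± 1.13), Gad2 (27.3 ± 4.24), Nxph1 (24.8 ± 2.68) and Sst (23.7 ± 4.63) followed, and the last 3 overlapped within their SDs. The lengths are those of all exons in GENCODE M21, joined over transcripts.

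Receptors and partners of GABA signalling sit largely in the cells that interneurons contact. The calls in these lists stand beside 0.254% of all genes tested at P0 and 3.72% at P7. Of 11 tested GABA-A receptor subunits, 1 was called at P0, Gabrg1, a gamma subunit gene, which rose from 6.35 ± 1.18 to 12.9 ± 0.679 CPM (log2 fold change 0.94, limma adjusted p = 0.0248), and 1 at P7, Gabrg3, another gamma subunit gene, which fell from 205 ± 6.82 to 164 ± 3.67 CPM (log2 fold change -0.32, limma adjusted p = 0.000743). The Gabrg1 call was lost without any 1 of the 4 cKO libraries (adjusted p from 0.0731 to 0.124) and with no filter (0.0772), and that of Gabrg3 in 1 fit over all libraries (0.602). The median log2 fold change of the 11 was 0.32 at P0, with 8 above 0, and -0.046 at P7, with 5 above 0, where all genes had 0.013 and 0.032. The mean log2(CPM + 1) of the list's 12 genes was 4.71 to 4.98 in P0 control and 5.14 to 5.21 in P0 cKO libraries, with no overlap, and without Gabrg1 it was 4.90 to 5.16 and 5.27 to 5.34, again with none. The level of the 8 astrocyte markers was higher in the same libraries, at 4.56 to 4.83 in P0 control and 4.85 to 5.08 in P0 cKO cortex with no overlap. Of the 7 astrocyte markers tested at P0, 6 had log2 fold changes above 0, with a median of 0.22 and none called by limma, S100b was under 1 CPM, and their part in the GABA-A receptor values was not tested. Of the genes for GABA-B receptors, GABA uptake and breakdown and chloride carriers, 0 of 8 at P0 and 0 of 10 at P7 were called, and of genes of the inhibitory postsynapse 0 of 6 at each age. A further list of 23 interneuron genes had 20 tested at each age, with none called at P0 and 2 at P7, both higher. They were Id2 and Cnr1. Id2, a helix-loop-helix inhibitor gene found in neurogliaform cells and in glutamatergic neurons, rose from 204 ± 23.9 to 314 ± 25.97 CPM (log2 fold change 0.63, limma adjusted p = 0.000259). Cnr1, a cannabinoid receptor gene, rose from 300.3 ± 4.69 to 338 ± 15.98 CPM (log2 fold change 0.17, limma adjusted p = 0.0497). Id2 was called in all 16 alternatives and Cnr1 in 1 of 16. The median log2 fold change of that list was 0.054 at P0 and 0.069 at P7.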

How the data were processed

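The deposited table held CPM values for 20841 genes in 16 libraries, made by the authors from reads per gene by division by the library total. STAR, HTSeq and edgeR and the builds mm10 and GRCm38 are named per the submitters' processing notes, and no source used here gives versions, settings or use of strand. Genes of the sex chromosomes are left out per the sheet's name. Per the labels' protocols, P0 and P7 libraries were read single-end on different platforms, BGISEQ and NextSeq.

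Divided by the CPM that 1 read is worth, 100% of values came out whole to within 0.01 read, which gave back the reads per gene and the library totals. The floors given for Pvalb cover counting error only. The intervals of log2 fold changes come from the limma fits and rest on the spread between libraries. The chi-square per gene between libraries of a group was 2.62 to 37.5, so no library was counted as a copy of another.

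Each age was fitted alone over its 8 libraries with limma 3.58.1 (R 4.3.3) on log2(CPM + 1), with eBayes and a trend. Genes needed 1 CPM or more in 4 or more libraries. The interaction and the age contrast came from 1 fit over all 16. P-values were adjusted by Benjamini-Hochberg over all genes tested and calls made under 0.05. Foxp1 was compared by an exact permutation test. The code was tested on simulated counts. Alternatives were a pseudocount of 0.1, a minimum mean of 5 CPM, no filter, medians of ratios, the quasi-likelihood test of edgeR 4.0.16, DESeq2 1.42.0 (both on recovered reads), 1 fit over all libraries, the striatal level as a covariate, P0 without control libraries 2 and 6, and leaving out each library.

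The members and lists were chosen with earlier results of these data known. In each of the striatal and glutamatergic lists 1 gene is not reported here, and it was left out of the list's counts and levels. List levels without Calb2, without Gabrg1 and without P7 control library 43 were chosen after seeing the data. Values in every library are given for Gad1, Gad2, Slc32a1, Lhx6, Prox1, Sst, Npy, Pvalb, Vip, Htr3a, every member called for genotype and every member without overlap between genotypes; the others are given by means and ranges. Positions and exon lengths are from GENCODE M21 (GRCm38).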

Additional observations from a re-analysis of the deposited data

Results flagged for a closer look

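In 8 of 121 sets of 4 libraries, 1 library stood far from the other 3 of its group for a member gene, by the gap to its nearest neighbour as a share of the whole range. Chance gives such a gap in about 1 of 20 sets. Dlx2 was at 67.05 CPM in P0 control library 6, and the other 3 libraries of the group had 48.9 to 51.2 CPM. In P0 control library 5, Sox6 was at 74.8 CPM beside 43.5 to 47.99 CPM in the others. Sp8 was at 14.3 CPM in P0 control library 5, and the other 3 libraries of the group had 11.7 to 11.97 CPM. In P0 cKO library 7, Cxcr4 was at 39.5 CPM beside 23.3 to 25.2 CPM in the others. Dlx6 was at 16.6 CPM in P7 control library 43, and the other 3 libraries of the group had 7.33 to 8.34 CPM. In P7 cKO library 41, Dlx5 was at 8.999 CPM beside 5.45 to 5.79 CPM in the others. Ndnf was at 96.5 CPM in P7 cKO library 44, and the other 3 libraries of the group had 73.6 to 77.005 CPM. In P7 cKO library 44, Calb1 was at 129 CPM beside 68.4 to 75.6 CPM in the others. Both Ndnf and Calb1 were set apart by P7 cKO library 44, and Sox6 and Sp8 by P0 control library 5.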

How the results depend on the processing

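The count of members called was 1 at P0, 3 at P7, 0 for the interaction and 29 for age. At P0 it was 0 with no filter, 3 in DESeq2 (Cck, Maf and Ndnf), 6 in 1 fit over all libraries (Adarb2, Cck, Maf, Ndnf, Nxph1 and Sox6) and 1 in the other alternatives that kept every library or left out control libraries 2 and 6, and leaving out 1 library gave 0 to 2. At P7 it was 0 with no filter, 2 on medians of ratios and in 1 fit over all libraries and 3 in the others that kept every library, and leaving out 1 library gave 0 (without control 43 or 47) to 6 (without cKO 44: Calb2, Dlx1, Htr3a, Npy, Sp8 and Sp9). For the interaction DESeq2 gave 3 and leaving out 1 library gave 0 to 2. For age all alternatives gave 26 to 30. Among all genes, the 32 calls at P0 became 7 with no filter, 429 in DESeq2, 794 in 1 fit over all libraries, 147 with the striatal covariate, 118 without control libraries 2 and 6 and 4 to 136 without 1 library. The 477 at P7, 214 higher and 263 lower, became 175 in 1 fit over all libraries and 281 to 496 without 1 library, and medians of ratios gave 155 higher and 303 lower. The 101 of the interaction, 41 higher and 60 lower, became 54 with no filter, 291 in DESeq2, 45 to 361 without 1 library, and 32 higher and 77 lower on medians of ratios. The cause of these shifts was not tested.

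Genes near 0 changed sign. At P0 the log2 fold change of Gad1 was 0.13 and of Lhx6 -0.014 with the striatal covariate, of Slc32a1 -0.022 in edgeR, -0.028 in DESeq2 and -0.070 without control libraries 2 and 6, and of Prox1 0.048 without those. Leaving out 1 library gave -0.29 to 0.079 for Gad1, -0.16 to 0.16 for Slc32a1, -0.13 to 0.10 for Prox1 and -0.083 to 0.39 for Sst. At P7 Gad1 was -0.022 on medians of ratios, -0.014 in edgeR and -0.014 in DESeq2, and Slc32a1 -0.0026 with the covariate. Leaving out 1 library gave -0.065 to 0.067 for Gad1, -0.047 to 0.20 for Slc32a1, -0.036 to 0.13 for Sst and -0.043 to 0.17 for Vip.

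The call of Cck held in 11 of 17 alternatives, of Calb2 in 12 of 16, of Satb1 in 10 of 16 and of Npy in 6 of 16, and none of these 4 changed sign at the age of its call. Without 1 library the difference in Foxp1 ranged over -182 to -152 CPM for P0, and over -249.6 to -195 CPM for P7, and the exact permutation p, taken as the doubled one-sided p, was 0.0571 each time, the smallest it can be with 4 against 3 libraries. No paired analysis was possible because the labels name no litters or pairs, so any pairing of libraries was not taken into account.

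The data are limited by 4 libraries per group, by bulk tissue, in which other cells share most of these genes, and by low reads for Pvalb, Lhx8, Vip at P0 and Crh at P0. The age contrast also holds the change of platform. The unadjusted 95% intervals reached a median of 0.34 at P0 and 0.27 at P7 to either side of the log2 fold change. For a typical member, smaller differences than these could not be told from 0 even before adjustment. Calls needed an adjusted p under 0.05, so larger differences could be missed too. At P0 Gad2 (-0.48) and Sox6 (0.46) had intervals clear of 0 and were not called.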
